A study of Mus musculus with 4 samples.

Results

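The genes described here code, in the nucleus, for the subunits of the mitochondrial respiratory chain and of the ATP synthase. They were chosen by name: genes on the array called Nduf, Uqcr or Atp5 with any ending, the 4 Sdh genes, and genes whose names start with Cox4, Cox5, Cox6, Cox7 or Cox8. This gave 94 genes of the 24893 named genes on the arrays, carried by 146 of 56605 probes. By function, 36 belonged to complex I, 4 to complex II, 8 to complex III, 20 to complex IV and 16 to the ATP synthase, which is also called complex V. Another 9 were assembly factors of complex I, among them Atp5sl (now Dmac2), and 1 was a pseudogene, Atp5c1-ps. The gene Ndufa4 was counted with complex IV, where its protein is found.

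The study used RAW264 cells, an established line of macrophage character that came from a BALB/c mouse. All cultures received a small interfering RNA (siRNA), directed at Tfe3 and Tfeb or, as the control, at the reporter gene GFP. Iron was given 48 hours after transfection as 500 µM FeCl3 and left for 24 hours. The 4 groups, always listed here in the same order, were control (siGFP), control with iron, knockdown (siTfe3/Tfeb) and knockdown with iron. Each group held 1 Agilent expression array, labelled from 50 ng of total RNA, so that no difference between groups had a replicate check and no test or p-value was computed between them. Tfe3 and Tfeb are transcription factors of the MiT/TFE family, known as activators of lysosomal and autophagy genes, and both bind the E-box CACGTG.

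In the respiratory chain, complexes I and II pass electrons from NADH and succinate through ubiquinone to complex III, and cytochrome c carries them on to complex IV, which reduces oxygen. Complexes I, III and IV pump protons out of the mitochondrial matrix, and the ATP synthase uses their return to make ATP. Iron is part of the chain itself: iron-sulfur clusters sit in complexes I, II and III, and haem in complexes II, III and IV. Several complex IV subunits exist as isoform pairs, with a general form and a form known from heart and skeletal muscle or from other tissues.

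Levels are given as the log2 processed signal of a probe, with the 75th percentile of its array set to 0, and a gene with several probes is represented by the brightest. The 75th percentile lay between 593 and 636 on the 4 arrays, all on 1 slide and scanned in 1 run, and no spot was saturated. On all 4 arrays 90 of the 94 were well above background, and the isoforms Cox7b2, Cox8b, Cox8c and Ndufa4l2 were well above background on none. The error given is the spot SD, the spread of repeated spots of 1 probe turned into an SD of a log2 difference. It was 0.064 for signals above a log2 level of 2 and grew to 0.26 between levels of -4 and -2, and it leaves out any variation between cultures. On the knockdown arrays Tfe3 was lower by 0.72 on the log2 scale without iron (3.60 against 4.33) and by 0.55 with iron (3.63 against 4.17). The level of Tfeb was -0.86 in the control, -0.98 in the control with iron, -1.0 in the knockdown and -0.81 in the knockdown with iron, so that its differences with knockdown, -0.14 and 0.16, had opposite signs. On each array all 12 macrophage markers were well above background. Their summed linear level was 1271 in the control, 1267 in the control with iron, 1075 in the knockdown and 1151 in the knockdown with iron, and its part in the knockdown differences below was not tested.

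As a whole, the respiratory chain and ATP synthase genes had median differences near 0 in all 4 comparisons. With iron, the median log2 difference of the 90 measured genes was 0.021 in control cells and 0.016 in knockdown cells. With knockdown it was 0.0017 without iron and -0.0041 with iron. Over all measured genes the medians were -0.020, -0.0065, -0.029 and -0.019 in the same order. In a bulk culture, fewer cells and less RNA per cell cannot be told apart.

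By the brightest probe of each gene, only Cox6a2, of the 90, differed 2-fold in any comparison. With iron in control cells no gene of the group did, where 1.67% of all measured genes differed 2-fold. With iron in knockdown cells Cox6a2 was 2-fold lower, against 2.07% of all genes differing 2-fold in either direction. With knockdown it was 2-fold higher both without iron (3.23% of all genes) and with iron (2.2%). The 2 iron differences themselves differed 2-fold for Cox6a2 and for no other of the group, against 0.627% of all genes. Among the other probes, a dim one of Ndufaf6, with a mean level of -3.55, passed 2-fold. It gave -1.92 for knockdown with iron and -1.165 for the difference of the iron responses.

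The signs of the differences were mixed. With iron, 37 of the 90 were below 0 in control cells, where 54% of all genes were, and 36 in knockdown cells, where 50.9% were. With knockdown, 45 were below 0 without iron, beside 53.5% of all genes, and 48 with iron, beside 52.8%. In the difference of the iron responses 43 were below 0, beside 50% of all genes. With medians so near 0 these counts depended on the scaling: under median centring they were 15 of 90 with iron in knockdown cells, 15 for knockdown with iron and 7 in the difference of the responses, and under quantile normalization 47, 43 and 59.

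The spread was narrower than that of all genes. Among the 90, the interquartile range of the knockdown differences without iron ran from -0.13 to 0.15, against -0.26 to 0.21 over all genes. With iron in control cells it ran from -0.05 to 0.06, against -0.15 to 0.13. Much of the group is bright, which lowers the spot noise: over the 4678 named genes with a mean level above 2, the same range with iron in control cells was -0.11 to 0.12, and over the 79 members above that level it was -0.06 to 0.06. For knockdown without iron it was -0.25 to 0.14 over those bright genes and -0.12 to 0.14 over those members. There the range of the members was narrower on the lower side only. A difference of at least 1.25-fold was seen for 11 of the 90 with knockdown without iron, where 36.4% of all genes passed it, and for 6 with knockdown with iron, where 29.8% did. With iron it was seen for 3 in control cells, beside 19.6% of all genes, and for 5 in knockdown cells, beside 25.4%. These shares are over all measured genes, dim ones included, and were not computed over the bright ones.

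**Figure D1:**
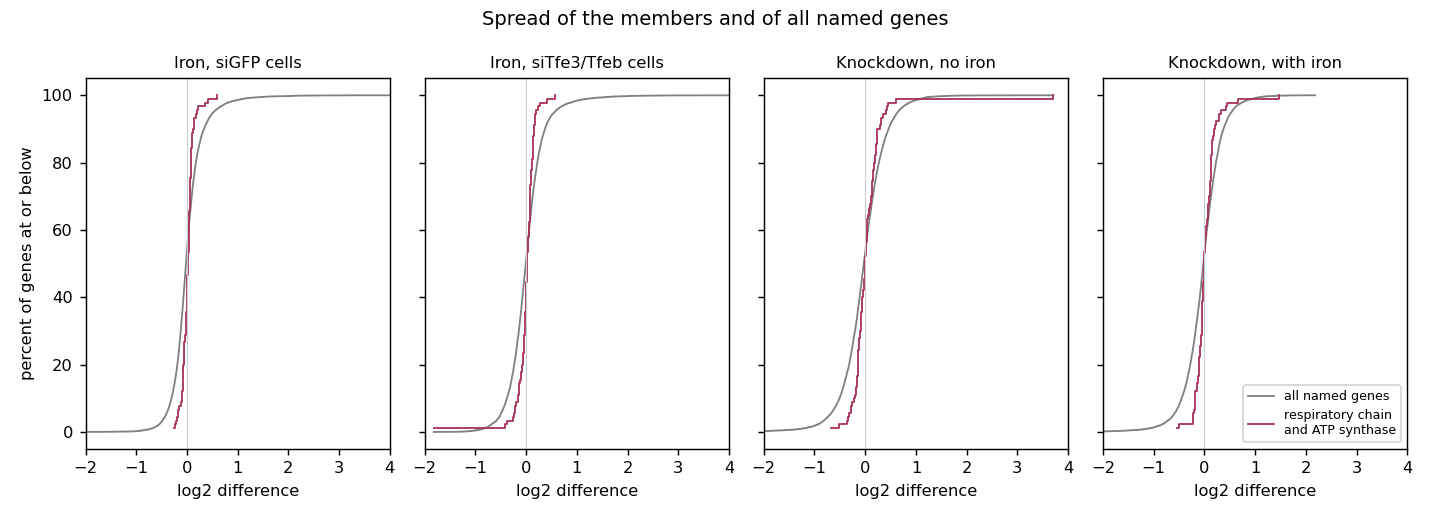
Percent of genes at or below each log2 difference between 2 arrays, for the respiratory chain and ATP synthase genes (red, 90 genes) and for all named genes well above background (grey), in the 4 comparisons; the axis was limited to -2 to 4. The red curves are steeper around 0, and their far steps at -1.82, 3.71 and 1.47 are Cox6a2.

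**Figure D2:**
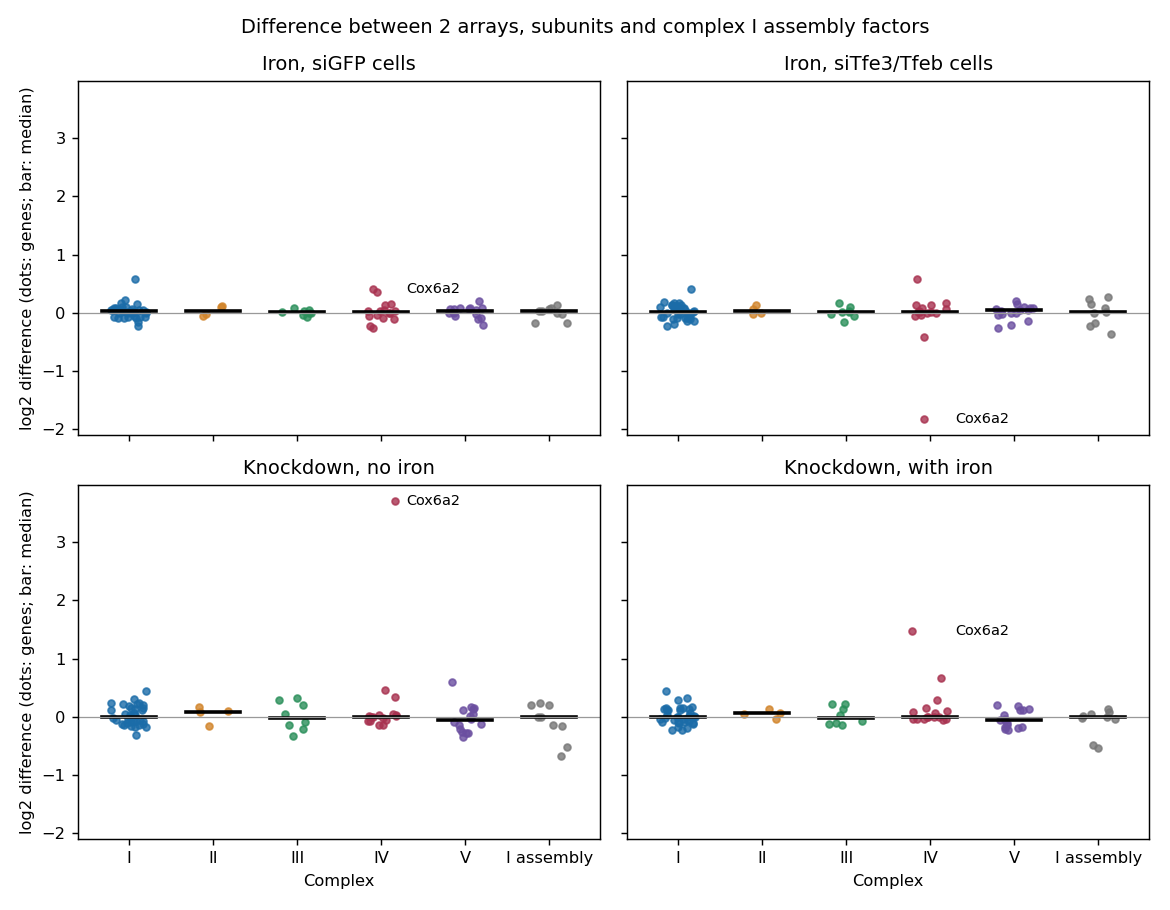
Log2 difference between 2 arrays for each gene (dots, spread sideways for legibility), by complex and for the complex I assembly factors, with the median as a bar. Medians lie near 0 in every complex, and Cox6a2 stands apart in 3 of the 4 panels.

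Cox6a2 codes for the form of subunit VIa known from heart and skeletal muscle. Its 1 probe lies at chr7:135349160-135349219 on the reverse strand in mm9, the build of the array design. Processed signals were 116 in the control, 157 in the control with iron, 1563 in the knockdown and 411 in the knockdown with iron, which gave levels of -2.41, -2.0, 1.30 and -0.53. The signal was thus highest in the knockdown without iron, intermediate in the knockdown with iron, and low on both control arrays, and it was well above background on all 4. The local background of its spot was marked as an outlier on the control array, and the spot itself on none.

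Knockdown without iron was accompanied by a 13.1-fold higher signal (log2 difference 3.71, spot SD 0.19), and no other of the 14322 genes measured in that comparison had a higher difference. With iron the knockdown difference was 1.47 (2.77-fold, spot SD 0.12), and 17 genes were higher. Iron in knockdown cells went with a 3.54-fold lower signal (-1.82, spot SD 0.11), the lowest of 14128 genes. In control cells the difference with iron was 0.42 (spot SD 0.20), so that the iron responses had opposite signs and differed by -2.24 (spot SD 0.23), the lowest of 13866 genes. These 5 values rest on 4 arrays, and each array enters several of them. Cox6a2 was looked at because an earlier report on these data had singled it out. Its ranks among all genes therefore restate that choice and give it no independent support. Under the 9 alternative settings the knockdown difference without iron lay between 3.13 and 3.71, and the one with iron between 1.18 and 1.59.

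The gene's ubiquitous counterpart Cox6a1 had a level of 8.04 on each of the 4 arrays, and its differences lay within 0.0054 of 0 (between -0.12 and 0.12 under the alternatives). Muscle markers were looked at beside Cox6a2. Of 18 such genes 8 were well above background on no array, among them Ckm, Mb, Myog and Myod1, and 8 were on all 4. Their summed linear level was 19.1 in the control, 27.8 in the control with iron, 17.1 in the knockdown and 23.6 in the knockdown with iron. It was highest in the control with iron, and most of it came from the troponin Tnni2 (levels 4.18, 4.75, 4.01 and 4.50). Of the 8 detected markers, 4 were below 0 with knockdown without iron and 2 with iron, beside 53.5% and 52.8% of all genes. Their medians were 0.050 and 0.20. Higher with knockdown were the myosin Myh4, by 0.50 and 0.38, the light chain Mylpf, by 0.30 and 0.37, and the troponin Tnnt3, by 0.44 and 0.21. Myh4, Mylpf, Des and Tnnc1 had levels between -4 and -2, where the spot SD was 0.26. Tnnt3 was above -2 only in the knockdown without iron. Myh7 was below -4 on all arrays but the knockdown with iron, and Tnnc2 was below it only there. Below -4 the spot SD was 0.68. The other detected markers were mixed. Des differed by -0.50 and 0.20, Tnnc2 by -0.08 and -0.44, and Tnni2 by -0.18 and -0.25. Myh7 differed by -0.17 and 0.20, and Tnnc1 by 0.18 and 0.10. Tnnt3 had levels of -2.07, -2.45, -1.63 and -2.24, and like Cox6a2 was highest in the knockdown and lower with iron there, by 0.61. The part of muscle genes in the Cox6a2 values was not tested.

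Genes next to Cox6a2 on the chromosome, in RefSeq order, did not show its pattern. On one side, Itgad and Gm39091 were well above background on no array, and 4931431B13Rik differed by 0.04 with knockdown without iron and 0.40 with iron. On the other side, 9130023H24Rik differed by -0.50 and -0.63, Armc5 by -0.30 and -0.30, and Tgfb1i1 by 0.27 and 0.37.

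Cox7a1, the muscle form of subunit VIIa, was also higher than the control on the other 3 arrays. Its levels were 1.01 in the control, 1.38 in the control with iron, 1.47 in the knockdown and 2.05 in the knockdown with iron. Iron differences were 0.36 in control cells and 0.58 in knockdown cells, and knockdown differences were 0.46 without iron and 0.67 with iron (spot SD 0.075 to 0.084). Unlike Cox6a2, it was highest on the array that combined knockdown and iron.

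Its partners differed less. Cox7a2, the general form, lay between 5.77 and 5.90. Cox7a2l, which takes part in joining complexes III and IV into supercomplexes, had levels of 6.72, 6.50, 7.07 and 6.66. It was lower with iron by 0.22 in control cells and by 0.41 in knockdown cells, and higher with knockdown by 0.35 and 0.16.

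Other isoform pairs stayed within small differences. Cox4i2, known as a hypoxia-responsive and lung form, lay between -1.12 and -1.04, and Cox4i1 between 6.88 and 7.02. Cox6b2, known from testis, had levels of -1.71, -1.97, -1.85 and -1.69, with iron differences of -0.26 and 0.17, while Cox6b1 lay between 3.40 and 3.43. Among the general subunits with isoforms that were not well above background, Cox7b lay between 5.65 and 5.73, Cox8a between 7.21 and 7.36, and Ndufa4 between 4.42 and 4.56. The 12 general complex IV subunits had median knockdown differences of -0.0063 and -0.0072.

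**Figure D3:**
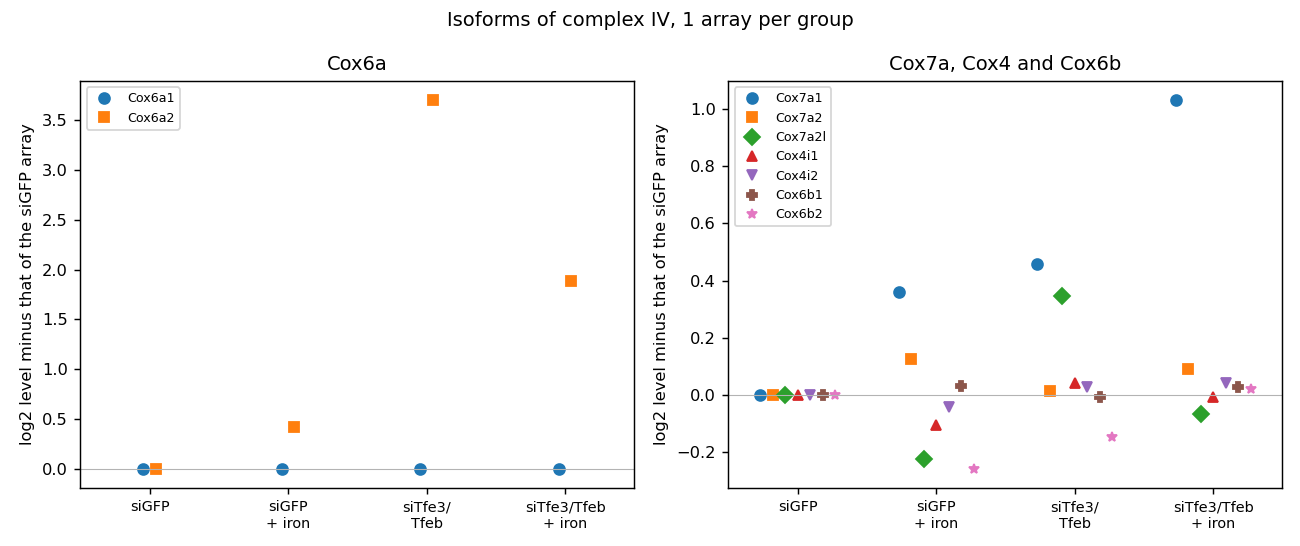
Log2 level of complex IV isoforms on each of the 4 arrays, minus the same gene's level on the siGFP array (0 by construction); symbols are genes, 1 array per group, and scales differ between the panels. Cox6a2 stands highest in the knockdown (siTfe3/Tfeb) without iron, Cox7a1 in the knockdown with iron, and Cox6a1 stays at 0.

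In complex I, the iron-sulfur subunit Ndufs8 differed most with iron. Its levels, from 1 probe, were 5.29 in the control, 5.87 in the control with iron, 5.27 in the knockdown and 5.68 in the knockdown with iron. Both arrays with iron were higher than both without, by 0.59 in control cells (1.50-fold) and 0.42 in knockdown cells (1.33-fold), each with a spot SD of 0.064. The lowest difference with iron in complex I belonged to Ndufa6, an accessory subunit, at -0.23 in each siRNA group.

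Most of the other iron-sulfur subunits had the opposite sign to Ndufs8. The list held 7: Ndufs1, Ndufs7, Ndufs8, Ndufv1, Ndufv2, Sdhb and the Rieske protein Uqcrfs1. With iron, 5 of the 7 were below 0 in control cells and 6 in knockdown cells, beside 54% and 50.9% of all genes. Their medians were -0.070 and -0.12. Ndufs7 differed by -0.08 and -0.14, Ndufv1 by -0.07 and -0.14, Ndufv2 by -0.08 and -0.12, and Uqcrfs1 by -0.08 and -0.15. Such differences are between 1 and 3 spot SDs. Ndufs1 was at -0.01 and -0.08, and Sdhb, at 0.11 and -0.0041, shared the sign of Ndufs8 in control cells. A second probe of Sdhb did not, at -0.14 and -0.07.

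With knockdown the same 7 had medians of 0.16 without iron and 0.11 with iron. In each, 2 of 7 were below 0, beside 53.5% and 52.8% of all genes. Ndufs7 was higher by 0.22 and 0.15, Ndufv1 by 0.21 and 0.14, Uqcrfs1 by 0.20 and 0.13, and Ndufv2 by 0.14 and 0.11, while Ndufs1 differed by -0.01 and -0.09. Over the alternatives the median lay between 0.14 and 0.23 without iron and between 0.063 and 0.23 with iron. All 7 had a lower iron response in knockdown cells than in control cells, as did 50% of all genes, with a median difference of -0.070. Under median centring this count was 1 of 7, beside 27.7% of all genes.

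Among the other complex I subunits, the accessory subunit Ndufv3 had the highest knockdown difference, with levels of 6.08, 6.02, 6.52 and 6.47 and differences of 0.44 in both iron states. A dimmer probe of Ndufv3 did not show it, at -0.04 and -0.16. Ndufs4, a subunit known from inherited complex I deficiency, was higher by 0.31 and 0.30, and Ndufc2 by 0.23 and 0.32. Lowest were Ndufb2 without iron (-0.32, and -0.22 with iron) and Ndufa5 with iron (-0.23, and -0.18 without). Another probe of Ndufa5 gave -0.24 without iron and -0.32 with iron. A second detected probe of Ndufb2 gave -0.28 without iron and -0.18 with iron. Averaging all its probes turned the value without iron to 0.23 by bringing in another probe that was well above background on no array. The 29 supernumerary subunits had knockdown medians of -0.055 and -0.0094, and Ndufa13, named for the brightest probe of the complex, had levels from 6.24 to 6.39.

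The complex I assembly factors help build the enzyme without staying in it. By brightest probe, Ndufaf8 and then Ndufaf2 had the lowest knockdown differences of the 9 in both iron states. Ndufaf8 had levels of 0.71 in the control, 0.84 in the control with iron, 0.03 in the knockdown and 0.30 in the knockdown with iron. Both knockdown arrays were lower than both controls, by 0.68 without iron (1.60-fold) and 0.54 with iron (1.46-fold), with a spot SD of 0.084. Ndufaf2 had levels of 2.07, 2.12, 1.55 and 1.63, and was lower with knockdown by 0.52 and 0.49.

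The remaining assembly factors, by their brightest probes, lay between -0.16 and 0.23 with knockdown. Of the other probes of Ndufaf6, the brighter gave -0.18 without iron and -0.17 with iron, and the dimmer -0.76 and -1.92. Ndufaf3 was at 0.23 without iron and 0.07 with iron, and Ndufaf7 at 0.20 and 0.13. Atp5sl was lower with iron, by 0.17 in control cells and 0.37 in knockdown cells, and another probe of it gave -0.25 and -0.34. Ndufaf8 had the highest iron differences of these factors, 0.14 and 0.27.

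Of the 8 complex I assembly factors outside the name rule, the iron-sulfur carrier Nubpl was higher with knockdown by 0.56 and 0.42. Foxred1 was lower with iron by 0.47 and 0.44. The list's knockdown medians were 0.13 and 0.15, with 3 and 2 of 8 below 0, beside 53.5% and 52.8% of all genes.

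Complex II, the succinate dehydrogenase, differed little by brightest probe. Sdha, the flavoprotein, had levels of 4.46, 4.44, 4.54 and 4.51. Sdhb, its iron-sulfur partner, was at 5.66 in the control and between 5.77 and 5.82 on the other arrays. The membrane anchors Sdhc (3.35, 3.45, 3.45 and 3.58) and Sdhd (5.40, 5.35, 5.24 and 5.31) had knockdown differences of opposite sign, 0.10 and 0.13 against -0.16 and -0.04. By brightest probe, no Sdh difference passed 3 spot SDs. Another probe of Sdhb gave knockdown differences of 0.18 without iron and 0.26 with iron. The next brightest probe of Sdha gave 0.23 and 0.32. Of its dimmer probes, one gave 0.56 and 0.17 and another -0.07 and -0.16.

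In complex III, the core protein Uqcrc2 (4.80, 4.88, 5.12 and 5.10) and the small subunit Uqcrq (6.84, 6.85, 7.12 and 7.07) were higher with knockdown, by 0.32 and 0.22 and by 0.29 and 0.22. Lower were Uqcr11, by 0.33 without iron and 0.13 with iron, and Uqcrb, by 0.21 and 0.15. A second probe of Uqcrb detected on all arrays gave -0.16 and -0.01. Averaging all its probes reversed the sign, to 0.32 and 0.13, by bringing in another that was well above background on 1 array. Uqcrh, named for its bright probe, stayed between 7.17 and 7.26. Of the partners of this complex, cytochrome c (Cycs) was lower with knockdown by 0.45 and 0.18, and Bcs1l, which inserts the Rieske protein, was higher by 0.63 and 0.42. The list of partners and assembly factors also held the complex III subunit Cyc1, which the name rule left out. Of the 7 measured genes on that list, 6 were below 0 in both knockdown comparisons, beside 53.5% and 52.8% of all genes. Their medians were -0.18 and -0.15.

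In the ATP synthase, the membrane sector and stalk, Fo, had 8 of 10 genes below 0 with knockdown in both iron states. Of all genes, 53.5% were below 0 without iron and 52.8% with iron. The Fo medians were -0.14 and -0.13. The 5 genes of the catalytic head, F1, had medians of 0.041 and 0.032, which took either sign under the alternatives (from -0.058 to 0.13 and from -0.11 to 0.15). Within Fo, Atp5k was lower by 0.35 without iron and 0.23 with iron, Atp5j by 0.29 and 0.18, and Atp5g3 by 0.29 and 0.19. A second probe of Atp5k gave -0.32 and -0.17. Over the alternatives the Fo median lay between -0.17 and -0.13 without iron. With iron, the count of 8 became 5 under median centring, with a median of -0.0084.

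The 3 genes for the c subunit, which forms the rotating ring and is the same mature protein from all of them, did not share 1 direction with knockdown. Atp5g1 (6.26, 6.32, 6.06 and 6.11) was lower with knockdown by 0.21 in both iron states. Atp5g3 had levels of 6.46, 6.51, 6.17 and 6.33. Atp5g2, whose probe was spotted 10 times on each array, had levels of 7.17, 6.96, 7.34 and 7.08, and was higher with knockdown by 0.17 and 0.12 and lower with iron by 0.20 and 0.26 (spot SD 0.020). Quantile normalization put its knockdown difference with iron at -0.0061.

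In the head, Atp5a1 (6.83, 6.75, 6.56 and 6.57) was lower with knockdown by 0.27 and 0.18, and another probe of it gave -0.13 and 0.14. Atp5d was higher by 0.12 and 0.19, and Atp5b, a catalytic subunit, stayed between 7.57 and 7.67. Coupling factor B, Atp5s (now Dmac2l), was at -1.41, -1.21, -0.81 and -1.02, which made knockdown differences of 0.60 and 0.18 and iron differences of 0.20 and -0.22. The pseudogene Atp5c1-ps was higher with knockdown by 0.42 and 0.43, the gene it is named after, Atp5c1, by 0.15 and 0.12, and how far one probe reads the other transcript was not tested.

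**Figure D4:**
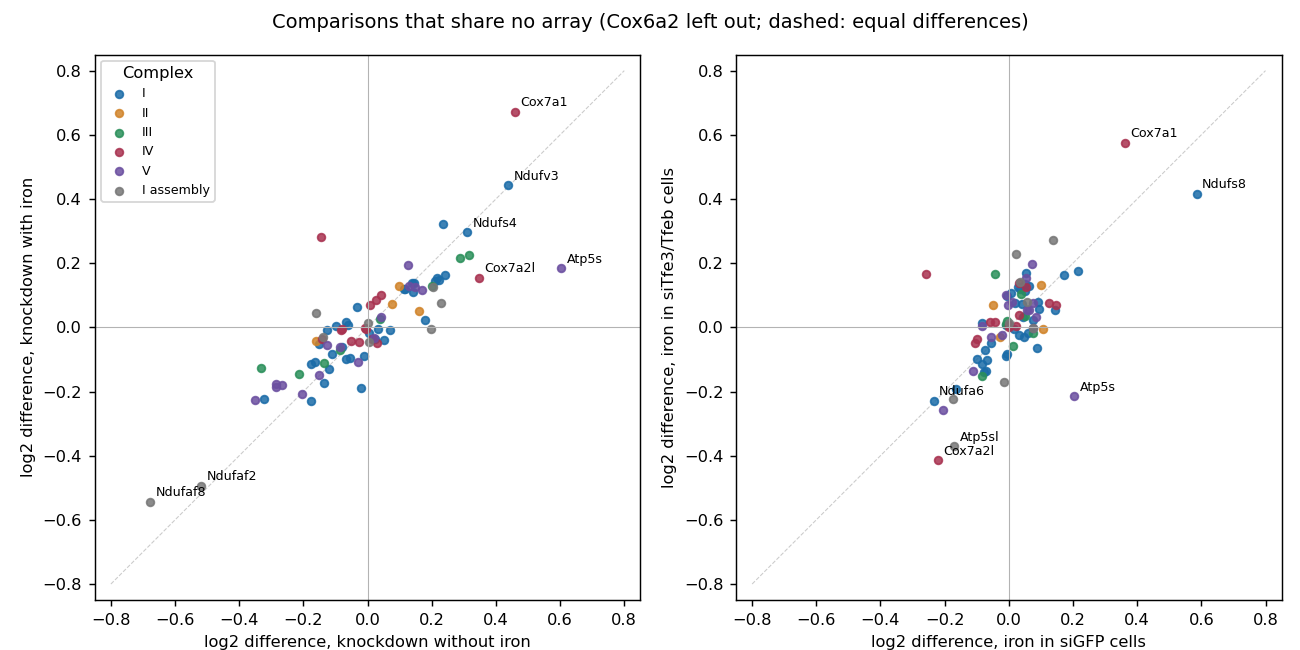
Each gene's log2 difference in one comparison against that in another which shares no array with it, coloured by complex, with Cox6a2 left out and equal differences on the dashed line. Left, knockdown without and with iron: Ndufaf8 and Ndufaf2 lie lowest and Cox7a1 and Ndufv3 high in both; right, iron in control (siGFP) and in knockdown (siTfe3/Tfeb) cells: Ndufs8 and Cox7a1 lie highest in both.

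The knockdown differences without and with iron come from separate arrays, as do the iron differences in the 2 siRNA groups. Without Cox6a2, 72 of the 89 genes (80.9%) had the same sign in both knockdown comparisons, beside 77.6% of all 13866 genes and 82.2% of the 4678 bright ones. Across genes, Pearson's r was 0.86 (Spearman's rho 0.85), beside 0.78 and 0.73 over all genes and 0.86 and 0.84 over the bright ones. Between the iron comparisons, 65 of the 89 (73.0%) had the same sign, with r = 0.69 and rho = 0.58, beside 72.0%, 0.68 and 0.57 over all genes and 77.2%, 0.79 and 0.72 over the bright ones. Genes are not independent replicates, and all points share the slide.

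Promoters were looked at because Tfe3 and Tfeb bind E-boxes and because the nuclear factors NRF1 and GABP are known regulators of this gene group. RefSeq windows of 250 bases before to 50 after the start (GRCm38.p6) were held for 77 of the 94 genes, in 83 windows, and Cox6a2 was not among them. The E-box CACGTG, on either strand, lay in 9 of the 83 windows (10.8%), beside 7.15% of all 32851 windows. Some genes have overlapping windows, and by gene it was 7 of 77 (9.09%), beside 8.09% of all genes. The longer CLEAR element, which holds that E-box and is its own reverse complement, lay in none of the 83, beside 0.326% of all. The NRF1 motif, searched on both strands and visible in the stretches printed last, lay in 24.1%, beside 4.60% of all windows, and the ETS motif of GABP, CCGGAAG, in 21.7%, beside 8.86%. The antioxidant response core TGACNNNGC lay in 14.5%, beside 12.4%.

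The E-boxes belonged to 7 genes, shown with up to 20 bases on either side, ending before the start, because they let the knockdown values be set beside a possible binding sequence. Capitals mark the E-box, and sequences run 5′ to 3′ on the strand of the gene.
Atp5f1 (now Atp5pb), chr3:105959487-105959513, minus strand: aCACGTGgtgtacctctgcgcaaccgc
Atp5g1, chr11:96075650-96075695, minus strand: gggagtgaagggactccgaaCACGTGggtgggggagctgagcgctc
Atp5g3, chr2:73911539-73911576, minus strand: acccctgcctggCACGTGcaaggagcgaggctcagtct
Atp5l, chr9:44920864-44920909, minus strand: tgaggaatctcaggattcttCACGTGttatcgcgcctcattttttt
Atp5sl, chr7:25619372-25619413, plus strand: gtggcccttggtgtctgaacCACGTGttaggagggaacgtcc
Ndufa7, chr17:33824480-33824525, plus strand: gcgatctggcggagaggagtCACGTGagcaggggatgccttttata
Ndufv1, chr19:4012899-4012944, minus strand: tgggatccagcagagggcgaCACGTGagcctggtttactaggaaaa

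Of these 7, the 4 of the ATP synthase were below 0 with knockdown in both iron states: Atp5f1 by 0.03 and 0.11, Atp5g1 by 0.21 and 0.21, Atp5g3 by 0.29 and 0.19, and Atp5l by 0.13 and 0.06. The complex I genes were above 0, Ndufa7 by 0.22 and 0.15 and Ndufv1 by 0.21 and 0.14. Atp5sl differed by 0.20 without iron and by -0.0037 with iron. Over all 7 the medians were -0.030 and -0.055, and over the 68 measured genes with a window and no E-box they were -0.0028 and -0.0052. The 4 ATP synthase genes with an E-box all belong to Fo, where 8 of 10 genes were below 0 with knockdown. For Atp5f1 both differences were within 2 spot SDs. A second bright probe of it gave 0.10 and -0.05, and a dim one -0.05 and -0.22. The part of the E-box in these values was not tested, and a match of letters is not evidence of binding.

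The NRF1 motif is shown for Cox6a1, whose level was 8.04 on every array, and for Sdha and the c subunit gene Atp5g2, with the motif in capitals.
Cox6a1, chr5:115349046-115349140, minus strand: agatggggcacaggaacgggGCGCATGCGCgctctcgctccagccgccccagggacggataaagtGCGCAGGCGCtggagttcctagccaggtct
Sdha, chr13:74350241-74350358, minus strand: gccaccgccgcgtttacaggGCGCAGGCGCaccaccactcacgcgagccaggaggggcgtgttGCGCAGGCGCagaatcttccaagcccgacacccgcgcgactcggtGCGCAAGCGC
Atp5g2, chr15:102671060-102671109, minus strand: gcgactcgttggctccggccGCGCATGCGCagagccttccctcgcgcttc

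The motif occurred 2 times in the stretch of Cox6a1 and 3 times in that of Sdha. The 19 measured genes with it had knockdown medians of 0.0036 and -0.019, and the 56 without it -0.023 and -0.0048. For the ETS motif the medians were -0.11 and -0.045 in 18 genes with it, and 0.014 and 0.0070 in 57 without. Of the 18, 13 and 15 were below 0, beside 53.5% and 52.8% of all genes. For the antioxidant response core they were 0.050 and 0.016 in 11 genes with it, and -0.025 and -0.0087 in 64 without. The part of these motifs in the knockdown values was not tested. Of the 10 measured regulators of mitochondrial biogenesis, 8 were below 0 with knockdown without iron and 7 with iron. Of all genes, 53.5% and 52.8% were. The medians of the regulators were -0.063 and -0.073. Nrf1 differed by -0.03 and -0.20 with knockdown and Gabpa by 0.15 and 0.15. The PGC-1-related coactivator Pprc1 was lower by 0.84 without iron and 0.49 with iron, Tfam, the mitochondrial DNA packaging factor, by 0.32 and 0.24, and Ppargc1a was well above background on no array.

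Complex IV also needs assembly factors that insert haem and copper and hold its subunits. Of 22 assembly factors of complex IV, 16 were below 0 with knockdown in each iron state, beside 53.5% and 52.8% of all genes. Their medians were -0.19 and -0.15, against -0.029 and -0.019 over all genes. Coa7 was lower by 0.83 and 0.62, Cox16 by 0.56 and 0.49, and Sco2, a copper chaperone, by 0.42 and 0.61. Cmc1 was higher by 0.44 and 0.46, and Surf1 by 0.30 and 0.22. Over the alternatives the median lay between -0.29 and -0.17 without iron and between -0.16 and -0.028 with iron.

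The list for ATP synthase assembly and inhibition also held the subunit Usmg5. The 5 genes on that list had knockdown medians of -0.12 and -0.084, and Atpaf2 was lowest at -0.31 and -0.25. The 4 complex II assembly factors had medians of 0.16 and 0.061. Of 13 subunits coded in mitochondrial DNA, 11 were on the arrays, with knockdown medians of -0.015 and 0.036 and iron medians of 0.040 and 0.073. Among these ND1 was lower with knockdown by 0.42 and 0.28.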

How the data were processed

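Total RNA of 4 cultures, 1 per group, was hybridised to 1-colour Agilent arrays. Scans were quantified with Agilent Feature Extraction 12.0.3.1, per the submitters' processing notes. Per the file headers, the authors' processed intensity of a spot has background subtracted and trends across the array removed, with no scaling from array to array. Flags for outliers, saturation and signal well above background come from the same deposited files. A deposited matrix gives log2 values, centred per probe on the median of the arrays. Set against the scanner values its array-to-array differences had slope 1 and r = 1, which settles scale and direction. Centring per probe cancels in such differences, and the largest absolute probe median of the matrix was 5e-07. Its column medians were -0.00423 (control), 0.0223 (control with iron), -0.087 (knockdown) and 0.00131 (knockdown with iron).

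Here, log2 processed signals were centred on the array's 75th percentile of non-control spots. Outlier spots were dropped, at the cost of 3 probes, repeated spots were averaged, and the brightest probe by its mean over the arrays stood for a gene. A gene counted in a comparison if well above background on both arrays, and on all 4 for the difference of iron responses. The threshold was 2-fold. Of the 94 genes, 90 were named by accession and 4 by symbol or synonym in a RefSeq table (GRCm38.p6). Spot SDs came from probes with at least 8 spots on an array, and few of these were dim: 39 combinations of probe and array lay between -4 and -2, and 10 between -2 and 0. Probe coordinates are on mm9, promoter coordinates on GRCm38.p6. Differences were computed with Python 3.11.15 and background correction with limma 3.58.1 in R 4.3.3. The procedure was tested on simulated data with planted changes and spot noise only. That simulation held no variation between cultures, so it says nothing about that source of error.

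The genes, lists and comparisons were chosen with earlier results of these data known. Named genes follow a rule: the isoforms and their partners, the highest and lowest gene of each complex in each comparison, the gene of highest mean signal in each, Sdh and iron-sulfur genes, genes at least 2-fold different, neighbours of Cox6a2, and Tfe3 and Tfeb. Other genes were picked from their lists or motif groups after their values were seen. Alternatives were quantile normalization, median centring, the 75th percentile over detected probes, normexp correction (offset 50) with either scaling, the authors' matrix, the mean over all probes, no background filter and a filter on all 4 arrays.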

Additional observations from a re-analysis of the deposited data

Results flagged for a closer look

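Cox6a2 was marked because its iron responses had opposite signs in the 2 siRNA groups, each beyond 2 spot SDs. The difference with iron was 0.42 in control cells and -1.82 in knockdown cells, a difference of -2.24. The mark depended on the level in the control with iron, -1.998, lying just above -2. With the spot SD of 0.26 that holds between -4 and -2, the difference in control cells would be below 2 spot SDs. After normexp correction the difference in control cells was 0.27, below 2 spot SDs, where the spot SD was 0.20. With 1 array per group, this difference was not tested.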

How the results depend on the processing

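With 1 array per group no replicate could be left out, and every value rests on single arrays and, for most genes, on 1 spot per array. No paired analysis was possible because each group held 1 array and the labels give no replicate numbers. Of the main results recomputed under the 9 alternatives, 165 values stayed within their spot SD or within 1.5 times the count, and 15 moved further. The 2-fold differences of Cox6a2 kept their sign under all 9. The group medians, near 0, did not: they ranged from -0.010 to 0.12 for iron in knockdown cells, from -0.015 to 0.014 for knockdown without iron, from -0.011 to 0.12 for knockdown with iron and from -0.038 to 0.12 for the difference of iron responses. Median centring shifted all genes by 0.10 with iron in knockdown cells and by 0.12 with knockdown with iron and in the difference of iron responses. It moved the group medians there to 0.12, 0.12 and 0.12, and the counts below 0 to 15, 15 and 7, beside 35.4%, 36.4% and 27.7% of all genes. Relative to all genes, the medians were the same as before (0.023, 0.015 and 0.00078). Quantile normalization put 59 of 90 below 0 in the difference of iron responses. Normexp correction gave smaller Cox6a2 differences: 3.13 for knockdown without iron, 1.19 with iron (1.18 with quantile normalization), -1.67 for iron in knockdown cells and -1.94 for the difference of iron responses, with either scaling. For iron in control cells it gave 0.27 in place of 0.42. Without the background filter 2 genes differed 2-fold with knockdown with iron. Of 81 differences of named genes beyond 2 spot SDs, 76 kept their sign under every alternative. The others were Atp5g2, Ndufb2, Uqcrb (both knockdown comparisons) and Uqcrfs1 (iron in knockdown cells, up to 0.0051). Other probes of the genes had the same sign in 26 of 43 cases with iron in control cells and in 35 of 42 with knockdown with iron.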
